A study of Rattus norvegicus with 8 samples.

Results

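Nuclear-encoded genes of oxidative phosphorylation were described in SF2 cells, a dental epithelial cell line labelled as coming from the rat mandibular incisor. The members were the rows whose symbol begins as those of the subunits of complexes I to V do (Nduf followed by a, b, c, s or v; Sdha to Sdhd; Uqcr; Cox4 to Cox8; Atp5) and that reached a CPM (reads scaled to the library total) of 1 in at least 4 of the 8 libraries. Of the table's 30240 rows, 108 had such a symbol and 91 reached the level, among 6849 genes tested. They comprised 39 rows of complex I, 6 complex I assembly factors (Ndufaf symbols), 4 rows of complex II, 8 of complex III, 14 of complex IV and 20 of complex V. Ndufa4 was counted with complex IV. Of the 91 members 8 carry pseudogene names, 4 in complex I, 1 in complex III and 3 in complex V. No row of the table lay on the mitochondrial chromosome (0 rows), so the mitochondrially encoded subunits were not analysed here.

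Oxidative phosphorylation passes electrons from NADH (through complex I) and from succinate (through complex II, which is also an enzyme of the TCA cycle) to ubiquinone, then through complex III and cytochrome c to complex IV, where oxygen is reduced. Protons pumped on the way drive complex V, the ATP synthase. Most subunits are encoded in the nucleus and imported, and several subunits of complex IV exist as tissue- or condition-specific isoforms. Glycolysis makes ATP without oxygen and feeds the TCA cycle with pyruvate, which lactate dehydrogenase can instead convert to lactate.

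The 8 libraries cross 3 labels with 1 library for each combination. The genotype label is AmeloD-overexpressing (here AmeloD) or Control, the plasmid label is pCMV6 or pCMV6.ODAM, and the last label is N or TGF, for which no longer form is given. AmeloD, encoded in the rat by Ascl5, is a transcription factor of the basic helix-loop-helix class known from tooth epithelium, and ODAM is a protein secreted by ameloblasts. With 4 libraries on each side of a label no combination was replicated, nothing says that libraries came from separate clones or cultures, and p-values measure only the spread between these libraries. Values are CPM on the authors' scale, from a kit that counts 3′ ends of transcripts. Differences are in log2(CPM + 1) with the standard error (SE), which understates the change of low genes, and a gene is said to have risen or fallen where the Benjamini-Hochberg adjusted p of limma over all genes tested was under 0.05.

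Library totals were 10568146 to 13668736 reads in AmeloD and 14766931 to 17775226 in Control, of which 1662973 to 2854134 per library lay in the table. The row of Ascl5 was listed at 0 in all 8 libraries, so it checks nothing about the genotype label. The row of Odam held 1 and 3 reads in the AmeloD pCMV6.ODAM libraries, 10 and 17 in the Control pCMV6.ODAM libraries, and 0 to 1 read in the libraries labelled pCMV6. Of 8 epithelial markers 6 were tested, Krt5 and Krt17 among them, and their summed level was 756 to 852 CPM in AmeloD and 515 to 656 CPM in Control. Of these 6 markers 5 rose in AmeloD and Krt8 fell, while 3 rose without Control pCMV6 TGF or with the TGF libraries alone, where Cdh1 and Krt5 did not pass. Leukocyte markers summed to 2.77 to 3.78 CPM in AmeloD and 0.876 to 1.63 CPM in Control, nearly all of it Cd68, while Ptprc had a mean of 0.0118 CPM. Endothelial markers summed to at most 0.0924 CPM in a library and the fibroblast and odontoblast markers to at most 1.30 CPM, with Col1a2, Dcn and Lum at 0. Depth and the epithelial markers thus moved with genotype, and their part in the results below was not tested. In bulk RNA, fewer cells of a type and less RNA per cell cannot be told apart.

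The promoter stretches of 4 members past the genotype test are shown first, because they carry or lack the motif cores of NRF1 and of ETS-family factors, which are known regulators of nuclear respiratory genes. Each is the 250 bases before the annotated start, from RefSeq on GRCr8, 5′ to 3′ on the gene's strand. Capitals mark matches to the NRF1 core GCGCANGCG or the ETS core CCGGAAG on either strand. Ndufa11 lies at chr9:1637364-1637613 (+ strand), Ndufv3 at chr20:9613536-9613785 (+ strand), Cox5b at chr9:46417587-46417836 (+ strand) and Ndufv1 at chr1:210734892-210735141 (- strand).
Ndufa11: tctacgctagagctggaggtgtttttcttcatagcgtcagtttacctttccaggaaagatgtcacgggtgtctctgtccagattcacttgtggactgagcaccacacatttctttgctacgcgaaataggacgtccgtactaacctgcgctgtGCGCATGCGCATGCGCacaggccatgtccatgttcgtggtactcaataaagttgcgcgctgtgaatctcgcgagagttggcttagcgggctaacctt
Ndufv3: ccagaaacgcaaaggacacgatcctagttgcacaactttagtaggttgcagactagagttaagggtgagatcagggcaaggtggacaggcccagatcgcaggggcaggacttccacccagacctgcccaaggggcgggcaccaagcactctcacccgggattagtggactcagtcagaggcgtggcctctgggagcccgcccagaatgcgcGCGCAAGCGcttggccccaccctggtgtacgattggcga
Cox5b: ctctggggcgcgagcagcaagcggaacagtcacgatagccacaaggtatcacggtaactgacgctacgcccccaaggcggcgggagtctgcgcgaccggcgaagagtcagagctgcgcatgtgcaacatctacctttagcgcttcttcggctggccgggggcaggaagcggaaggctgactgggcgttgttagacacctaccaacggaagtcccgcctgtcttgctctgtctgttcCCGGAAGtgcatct
Ndufv1: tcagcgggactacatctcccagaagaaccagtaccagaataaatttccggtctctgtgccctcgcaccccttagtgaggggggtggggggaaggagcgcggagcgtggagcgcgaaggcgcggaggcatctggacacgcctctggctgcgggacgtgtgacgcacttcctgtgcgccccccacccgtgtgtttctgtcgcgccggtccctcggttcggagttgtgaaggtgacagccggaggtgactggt

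The run of capitals in Ndufa11, which fell in AmeloD, holds overlapping NRF1 cores on both strands between positions -97 and -82, counted from the start at 0. Ndufv3, which rose, holds 1 NRF1 core that begins at position -39, and Cox5b, which fell, holds 1 ETS core that begins at position -14. Ndufv1, which rose, holds neither. Atp5f1c, which also rose and is not shown, holds 1 NRF1 core from position -8 to 0, across the start. The NRF1 core was thus in 3 of the 9 called members with a matched promoter (33.3%). Of these Ndufa11 fell, and Ndufv3 and Atp5f1c rose. Promoters of 73 of 82 member symbols were matched, and the 300-base windows that also take in the 50 bases after the start were searched on both strands. The NRF1 core was in 19 of the 73 (26.0%), in 16.5% of the 5154 promoters of genes tested and in 6.26% of all 27457 promoters. The ETS core was in 27.4% of the members' promoters, 21.8% of those of genes tested and 9.22% of all. The core of YY1, AAGATGGCG, was in 12.3%, 4.79% and 1.93%. The E-box CANNTG, the kind of site that basic helix-loop-helix factors bind, was in 60.3% of the members' promoters and 60.1% of those of genes tested. Of all promoters 71.6% held it. The hypoxia response core, ACGTG or GCGTG, was in 61.6% of the members' promoters, 65.6% of those of genes tested and 42.9% of all. ACGTG can overlap an E-box such as CACGTG. A match is a description of letters, not a bound site.

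Between AmeloD and Control the members as a whole stayed close to each other and a few subunits moved in each direction. Their summed level was 18513 ± 1299 CPM (SD, n = 4) in AmeloD and 18541 ± 829 CPM (SD, n = 4) in Control, a ratio of 0.998. Of 91 members 8 rose and 5 fell (14.3%), beside 13.8% of the 6849 genes tested that passed in either direction. Rises were 8.79% of members and 9.07% of all genes, and falls 5.49% and 4.75%. The median difference of the members was 0.06 on the log2 scale and that of all genes tested 0.05. The libraries of the 2 genotypes did not overlap for 14 members (15.4%), beside 15.0% of genes tested. Pooled over all levels and with the deposited CPM, the share called is thus near the background. Shares by mean level and under other scalings, several of them below the background, are given in what follows.

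The sizes of the members' differences are given beside those of all genes. An absolute difference above 0.5 on the log2 scale was found in 4 members (4.40%) and in 13.4% of genes tested, and one above 1 in 0 members and in 150 genes. Since members tend to be more abundant than other genes, the differences were also read by mean level. Among genes at 10 to 100 CPM the standard deviation of the log2 differences was 0.20 over 31 members and 0.43 over 1303 genes. At 100 CPM and above it was 0.17 over 37 members and 0.43 over 229 genes, and at 1 to 10 CPM it was 0.34 over 23 members and 0.37 over 5317 genes. All 4 members above 0.5 lay at 1 to 10 CPM, where they were 17.4% of members, beside 13.3% of genes. Called were 3 of 23 members (13.0%) and 10.9% of genes at 1 to 10 CPM, 5 of 31 (16.1%) and 23.2% at 10 to 100 CPM, and 5 of 37 (13.5%) and 27.5% at 100 CPM and above. These are descriptions, since genes are not replicates and the members share libraries and scaling.

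By class, complex I had a median of 0.03 on the log2 scale with 4 rises and 3 falls among 39, complex III 0.04 with 0 calls among 8, complex IV 0.05 with 1 rise and 2 falls among 14, and complex V 0.07 with 2 rises among 20. The 6 assembly factors (median 0.24, 1 rise) and the 4 genes of complex II (median 0.26, 0 calls) lay above the rest. Called were 17.9% of complex I, 16.7% of the assembly factors, 21.4% of complex IV and 10% of complex V, beside 13.8% of genes tested. The signs of the small medians depend on the scaling. With TMM scaling of the libraries complexes I, III, IV and V came to -0.06, -0.03, -0.02 and -0.03, while the assembly factors and complex II kept 0.16 and 0.17. The split of calls over all genes moved too, from 65.6% higher with the deposited CPM to 48.6% higher with TMM. Under TMM the members had 2 rises (2.20%, beside 7.24% of all genes) and 7 falls (7.69%, beside 7.67%), together 9.89% beside 14.9%. With the same median in every library they also had 2 rises and 7 falls, beside 7.15% and 7.45% of all genes (14.6% together), and scaled to the table sum 7 rises and 6 falls, beside 8.72% and 5.45%. On recovered reads edgeR called 2 rises and 6 falls, beside 7.58% and 6.40% of all genes, and DESeq2 called 2 rises and 7 falls, beside 6.04% and 5.30%. Without limma's trend of variance with level there was 1 rise and 1 fall, beside 7.33% and 3.37%. Of the 13 calls, 7 were kept under each of 3 rescalings (TMM, the same median in every library, the table sum), edgeR and DESeq2, namely Ndufv1, Ndufa4, Cox5b, Cox6a2, Ndufa11, Ndufs6 and Ndufs6l1. The rises of Ndufb8, Ndufs7, Ndufv3, Ndufaf6, Atp5pd and Atp5f1c were not past the test under TMM, edgeR or DESeq2. In the 8 fits that leave out 1 library, Ndufb8 and Atp5pd were called in 1 each. Ndufv3, Ndufaf6 and Atp5f1c were called in 3 each and Ndufs7 in 5.

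Complex I takes electrons from NADH at a flavin held by Ndufv1, in the matrix arm. Ndufv1 (chr1:201299985-201305466, mRatBN7.2) was at 9.65, 6.53, 8.78 and 9.58 CPM in the AmeloD libraries pCMV6 N, pCMV6.ODAM N, pCMV6 TGF and pCMV6.ODAM TGF, and at 4.57, 4.81, 5.29 and 4.48 CPM in the Control libraries in the same order, which is kept below. Every AmeloD library lay above every Control library, and the difference was 0.72 (SE 0.16, adjusted p = 0.00220, limma). Ndufv3, a small accessory subunit of the same NADH-binding module, was at 22.6, 30.0, 30.0 and 22.2 CPM in AmeloD and 21.0, 17.6, 21.8 and 15.3 CPM in Control. Its groups did not overlap, though the lowest AmeloD library (22.2 CPM) and the highest Control library (21.8 CPM) were close. The difference was 0.45 (SE 0.14, adjusted p = 0.0285, limma), with adjusted p = 0.0966 under TMM. The row named Ndufv3-ps1, a pseudogene, differed by 0.44 (adjusted p = 0.0532, limma), and reads shared between such copies cannot be assigned from the table. Summed over the pair of rows the level was 33.8 ± 4.88 CPM in AmeloD and 24.2 ± 2.90 CPM in Control (SD, n = 4 each).

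Ndufs6, a zinc-binding accessory subunit that joins the NADH-binding module late in assembly, gave its name to both rows with the most negative differences in complex I. The table has a row Ndufs6 on chromosome 2 with 2 exon blocks and a row Ndufs6l1 on chromosome 1 with 12 exon blocks, whereas the RefSeq promoter table places Ndufs6 on chromosome 1. No promoter was therefore read for them. The row Ndufs6 was at 20.7, 24.3, 22.8 and 22.2 CPM in AmeloD and 32.9, 29.2, 32.1 and 30.8 CPM in Control. The row Ndufs6l1 was at 254, 286, 264 and 259 CPM in AmeloD and 354, 319, 349 and 374 CPM in Control. Neither row's groups overlapped. The differences were -0.46 (SE 0.12, adjusted p = 0.00904, limma) and -0.39 (SE 0.08, adjusted p = 0.00207, limma). Because near-identical copies can share reads these 2 rows are not independent, and their sum was 288 ± 15.5 CPM in AmeloD and 380 ± 23.5 CPM in Control (SD, n = 4 each), lower in 4 of 4 matched pairs. Without AmeloD pCMV6 N the row Ndufs6 had an adjusted p of 0.0543 (limma), and with the TGF libraries alone 0.139. The row Ndufs6l1 had an adjusted p of 0.0928 with the N libraries alone (limma).

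Ndufa11, an accessory subunit of the membrane arm, fell as well. Its levels were 156, 184, 175 and 165 CPM in AmeloD and 229, 214, 213 and 204 CPM in Control, with no overlap. The difference was -0.34 (SE 0.09, adjusted p = 0.0101, limma), and the call was lost without AmeloD pCMV6 N or without Control pCMV6 N, with an adjusted p of at most 0.0758. With the TGF libraries alone the adjusted p of Ndufa11 was 0.259 (limma). Ndufc1, another membrane-arm subunit named here because a count differs by it, also had groups that did not overlap, at a difference of -0.27 that missed the test (adjusted p = 0.0570, limma) and passed it under TMM, edgeR and DESeq2.

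Ndufs7, a core subunit with the iron-sulfur cluster that hands electrons to ubiquinone, was at 72.7, 102, 74.0 and 85.6 CPM in AmeloD and 62.1, 62.6, 58.8 and 75.1 CPM in Control. AmeloD was higher in 4 of 4 matched pairs, but the ranges overlapped. The difference was 0.36 (SE 0.10, adjusted p = 0.0221, limma) and 0.26 (adjusted p = 0.0975) with TMM scaling. Ndufb8, an accessory subunit of the membrane arm, was at 215, 223, 226 and 221 CPM in AmeloD and 175, 171, 201 and 194 CPM in Control. All AmeloD libraries were higher, by 0.26 (SE 0.09, adjusted p = 0.0442, limma), and the adjusted p was 0.292 with TMM. The remaining 32 rows of complex I did not pass the test.

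Assembly factors build complex I without staying in it. Their summed level was 24.5, 23.5, 23.8 and 22.8 CPM in AmeloD and 21.2, 17.5, 19.5 and 17.4 CPM in Control, so the AmeloD libraries lay above all Control libraries. The 1 member that rose was Ndufaf6, a factor needed early in complex I assembly, at 4.73, 3.26, 2.22 and 3.15 CPM in AmeloD and 2.19, 0.880, 2.36 and 1.75 CPM in Control. The groups overlapped at pCMV6 TGF, where AmeloD was the lower of the pair. The difference was 0.64 (SE 0.21, adjusted p = 0.0398, limma), and with the N libraries alone it was 1.01 and with the TGF libraries alone 0.26. Ndufaf7, a methyltransferase acting on complex I, was at 1.41 ± 0.324 CPM in AmeloD and 0.863 ± 0.225 CPM in Control (SD, n = 4 each) and did not pass the test (adjusted p = 0.196, limma). Its Control mean is below the level of 1 CPM, so it was tested mainly through AmeloD, where it is high. Ndufaf4 was tested mainly through Control, at 0.933 ± 0.374 CPM in AmeloD and 1.41 ± 0.203 CPM in Control. It differed by -0.33 (adjusted p = 0.259, limma). The class median rests on these low rows too.

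Complex II has 4 subunits, all encoded in the nucleus, and none passed the test. Sdha, the flavoprotein that oxidises succinate, was at 2.93, 3.26, 2.77 and 4.17 CPM in AmeloD and 5.70, 3.72, 4.28 and 4.55 CPM in Control. It was lower in 4 of 4 matched pairs with overlapping ranges (difference -0.38, adjusted p = 0.175, limma). The other subunits had positive differences. Sdhb, the iron-sulfur subunit, was at 21.0, 21.4, 19.7 and 37.9 CPM in AmeloD and 22.9, 19.6, 20.0 and 18.3 CPM in Control, so its difference of 0.25 rests on AmeloD pCMV6.ODAM TGF and is -0.01 without it. The membrane anchors Sdhc and Sdhd differed by 0.32 and 0.27 (both adjusted p = 0.221, limma). The class median of 0.26 was 0.13 without AmeloD pCMV6.ODAM TGF.

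Complex III had 0 calls, and its summed level was 2069 ± 172 CPM in AmeloD and 2137 ± 46.0 CPM in Control (SD, n = 4 each). Uqcrfs1, the Rieske iron-sulfur protein, was at 4.26, 4.38, 3.70 and 2.93 CPM in AmeloD and 3.13, 1.15, 2.59 and 3.05 CPM in Control. The ranges overlapped, and the difference of 0.50 did not pass (adjusted p = 0.101, limma). The core subunits Uqcrc1 and Uqcrc2 differed by 0.14 (adjusted p = 0.648, limma) and 0.34 (adjusted p = 0.211, limma).

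Complex IV had 2 falls and 1 rise, and held the most negative difference of the 91 members. Cox5b, a zinc-binding subunit on the matrix side (chr9:38921967-38925052, mRatBN7.2), was at 465, 491, 504 and 402 CPM in AmeloD and 589, 576, 642 and 700 CPM in Control. No AmeloD library reached the lowest Control library, and the difference was -0.43 (SE 0.09, adjusted p = 0.00118, limma). It was called in 8 of 8 fits that leave out 1 library, but not without the trend (adjusted p = 0.0836, limma) or with the N libraries alone, where the difference was -0.29 (adjusted p = 0.136, limma), beside -0.57 with the TGF libraries alone. Cox4i1, another subunit of complex IV, was at 217 ± 27.5 CPM in AmeloD and 197 ± 17.0 CPM in Control (SD, n = 4 each) and did not pass (0.14, adjusted p = 0.334, limma).

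Cox6a2 encodes the isoform of subunit VIa known from heart and skeletal muscle. It was at 1.80, 1.56, 2.31 and 1.39 CPM in AmeloD and 5.26, 3.05, 3.77 and 2.86 CPM in Control, without overlap, and fell by 0.76 on the log2 scale (SE 0.18, adjusted p = 0.00448, limma). With the TGF libraries alone Cox6a2 differed by -0.61 and did not pass (adjusted p = 0.204, limma). Its ubiquitous counterpart Cox6a1 was at 573 ± 33.7 CPM in AmeloD and 515 ± 37.0 CPM in Control (SD, n = 4 each), a difference of 0.15 that did not pass (adjusted p = 0.211, limma). In the other isoform pair, Cox7a1 of muscle and the widely expressed Cox7a2, the differences were -0.02 (adjusted p = 0.961, limma) and -0.01 (adjusted p = 0.952, limma). Cox7a2l, a related protein found in respiratory supercomplexes, differed by -0.22 (adjusted p = 0.168, limma) and passed the test as lower under TMM, the same median in every library and DESeq2.

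Ndufa4, once assigned to complex I and now to complex IV, was at 59.1, 72.8, 56.7 and 74.8 CPM in AmeloD and 46.2, 48.4, 47.7 and 51.9 CPM in Control. All AmeloD libraries were higher, by 0.42 (SE 0.10, adjusted p = 0.00623, limma), and the call held in 8 of 8 fits that leave out 1 library, but not without the trend (adjusted p = 0.0700, limma) or with the TGF libraries alone (adjusted p = 0.183, limma). Its relative Ndufa4l2, a gene known to be induced by hypoxia, lay below the level for members. Ndufa4l2 had 0 reads in the 4 AmeloD libraries and 78 in the 4 Control libraries, at 1.13, 1.63, 0.563 and 1.69 CPM. Over the pooled libraries it was at least 19.7-fold higher in Control, with 0 reads taken to allow up to 3 over the AmeloD group. It was not tested in the main comparison. Cox4i2, another isoform known from hypoxia and the lung, had 3 reads in all 8 libraries together.

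**Figure D1:**
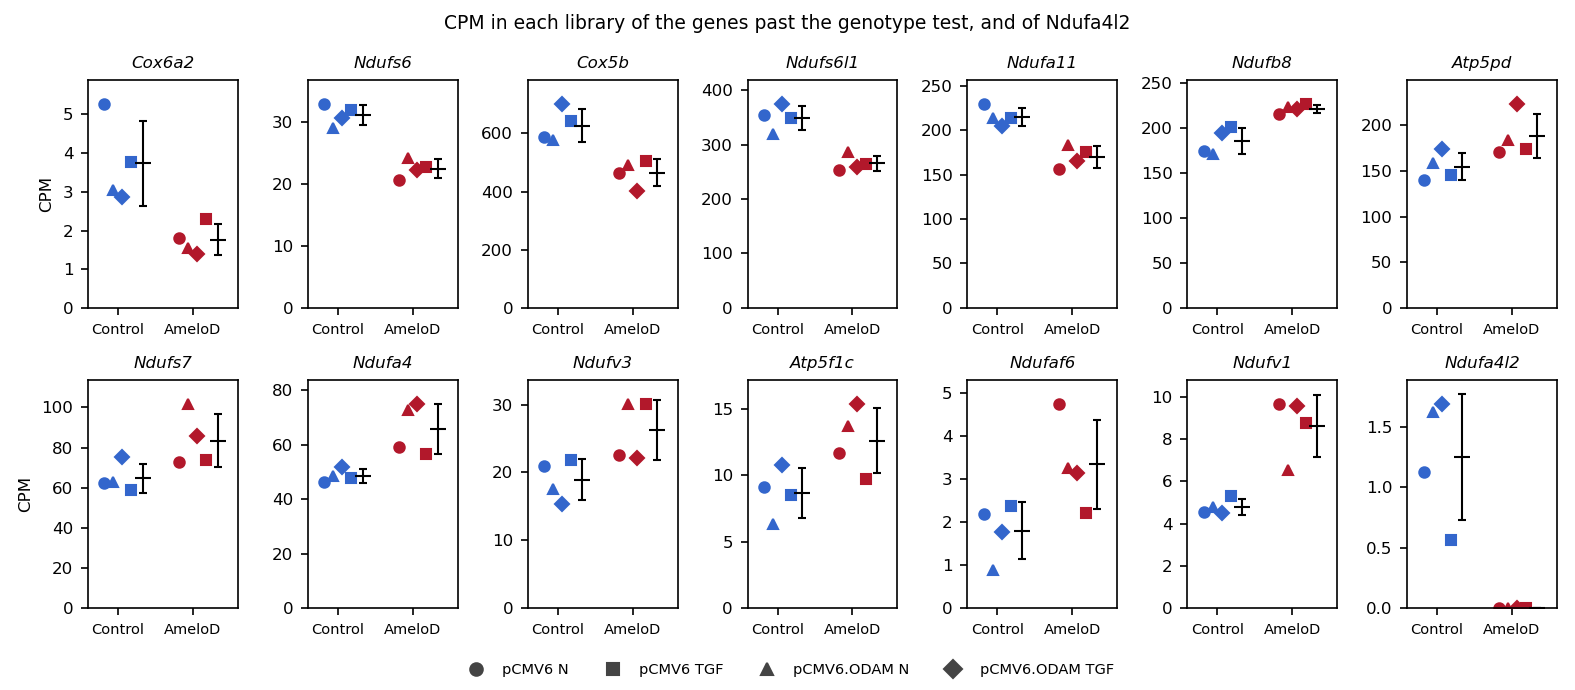
Each panel plots the CPM of 1 gene in the 4 Control and 4 AmeloD libraries, with symbols for plasmid and TGF labels, the mean and its SD beside the points, and an axis from 0. Falls are plotted first, then rises, then Ndufa4l2, which has 0 reads in every AmeloD library. Control pCMV6 N is the highest Cox6a2 library at 5.26 CPM.

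Complex V rose in 2 of 20 rows and fell in 0. Atp5f1c, the rotor shaft that turns within the catalytic head, was at 11.7, 13.7, 9.70 and 15.4 CPM in AmeloD and 9.14, 6.30, 8.49 and 10.8 CPM in Control. Atp5pd, a subunit of the peripheral stalk, was at 171, 184, 174 and 223 CPM in AmeloD and 140, 159, 146 and 174 CPM in Control. Both were higher in 4 of 4 matched pairs with overlapping ranges, by 0.50 (SE 0.16, adjusted p = 0.0401, limma) and 0.28 (SE 0.09, adjusted p = 0.0341, limma). With TMM the adjusted p was 0.0654 for Atp5f1c and 0.211 for Atp5pd.

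The catalytic subunit Atp5f1b was at 66.9, 67.3, 61.3 and 100.2 CPM in AmeloD and 76.2, 76.0, 72.1 and 75.3 CPM in Control. AmeloD was lower in 3 of 4 matched pairs and higher in the pair labelled pCMV6.ODAM TGF, and the difference was -0.05 (adjusted p = 0.858, limma). The membrane ring that protons turn is made of 1 protein encoded by Atp5mc1, Atp5mc2 and Atp5mc3, which differed by 0.25 (adjusted p = 0.123, limma), 0.10 (adjusted p = 0.609, limma) and -0.09 (adjusted p = 0.673, limma). Atp5if1, the inhibitor that stops the enzyme from running backwards, differed by 0.07 (adjusted p = 0.674, limma).

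Of the 17 rows with a matching symbol below the level, Ndufb4l1 had the highest mean at 0.934 CPM and reached 1 CPM in 2 libraries. Ndufa4l2 came closest to the rule, with 1 CPM or more in 3 libraries, all of them Control. By mean, the members just inside were Uqcrb-ps2 at 0.981 CPM and Ndufaf5 at 1.09 CPM. Uqcr11, a small subunit of complex III, held 20 reads in all and was not tested.

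Glycolytic genes are set beside the respiratory members in the plot of related lists. The lists were drawn up with earlier results of these data known. Of 12 glycolysis and lactate genes tested 7 fell and 0 rose, beside 4.75% and 9.07% of genes tested. Their median was -0.45 on the log2 scale, beside 0.06 for the 91 members and 0.05 for all genes tested. The lead falls were Ldha (lactate dehydrogenase) by 1.18, Slc2a1 (a glucose transporter) by 0.89 and Tpi1 (triosephosphate isomerase) by 0.76 on the log2 scale. Slc2a1 is low in level, and with 0.1 in place of 1 added to the CPM it differed by -1.46. It may thus have reached the level of 1 CPM mainly through Control, where it is high. With no filter the adjusted p of Slc2a1 was 0.0145 (limma). A filter of 5 CPM in 4 libraries left Slc2a1 out, and 6 of the 7 glycolytic genes then tested fell. Ldha was at 73.8 ± 4.47 CPM in AmeloD and 169 ± 21.3 CPM in Control (SD, n = 4 each), and its groups did not overlap. With TMM, the same median, edgeR or DESeq2 8 glycolytic genes fell, without the eBayes trend 5, and with the TGF libraries alone 4, where Slc2a1 had an adjusted p of 0.128 (limma). Members and glycolytic genes share all 8 libraries, and no test compared the 2 lists.

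**Figure D2:**
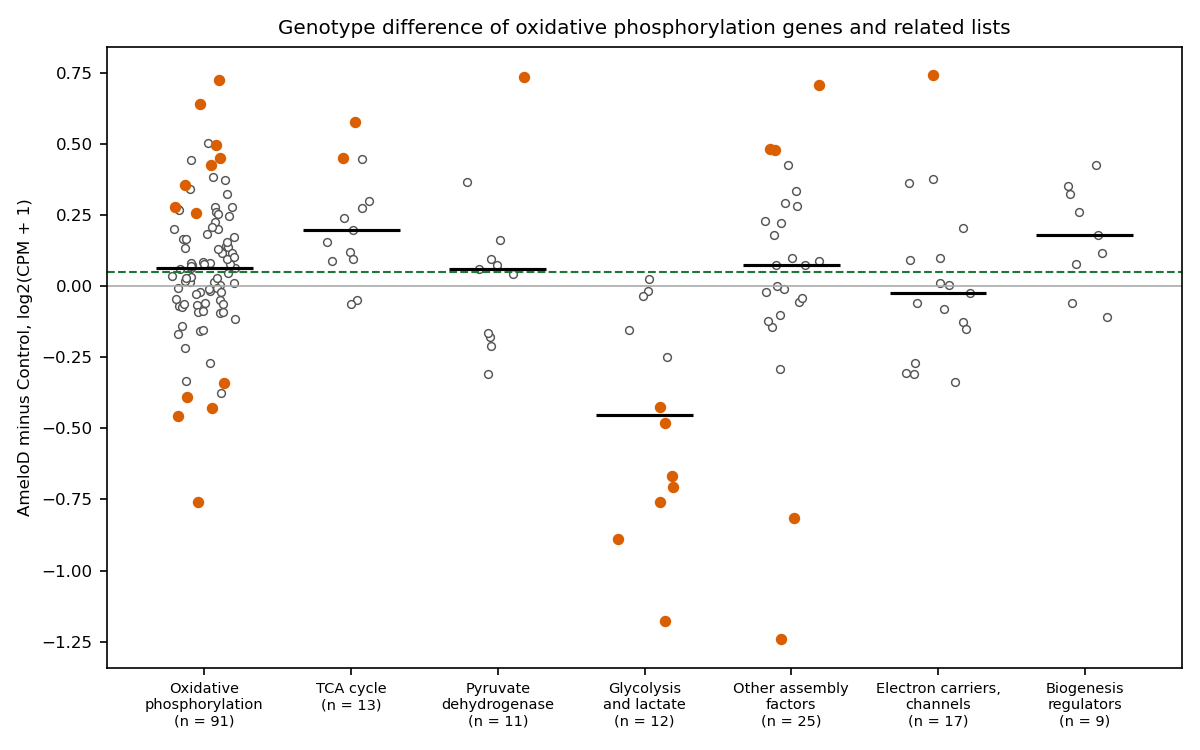
AmeloD minus Control differences in log2(CPM + 1) are plotted for the 91 members and for the tested genes of 6 lists. Filled points passed the test, bars are medians and the dashed line is the median of all genes tested. The glycolysis bar lies at -0.45 and the bar of the members at 0.06.

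Around the respiratory chain, the TCA cycle list had 2 rises and 0 falls among 13 genes, beside 9.07% and 4.75% of genes tested, with a median of 0.20. The rises were Cs (citrate synthase) by 0.45 and Idh2 (a mitochondrial isocitrate dehydrogenase) by 0.58. Both had groups that did not overlap, and neither passed under TMM, where the adjusted p was 0.0821 for Cs and 0.0677 for Idh2. Both calls were also lost with edgeR, DESeq2, no filter, no trend, the N libraries alone and the TGF libraries alone. Several fits that leave out 1 library lost them too, such as that without AmeloD pCMV6.ODAM TGF (adjusted p = 0.180 for Cs and 0.102 for Idh2, limma). Among 11 genes of pyruvate dehydrogenase and its regulators Pdk2, a kinase that inhibits the enzyme, rose by 0.73 from 0.660 ± 0.387 CPM in Control to 1.75 ± 0.557 CPM in AmeloD (SD, n = 4 each). Its Control mean is below the level of 1 CPM, so it was tested through the group where it is high, and its adjusted p was 0.0623 with no filter, 0.0829 without AmeloD pCMV6 N, 0.0520 without Control pCMV6 N and 0.174 with the TGF libraries alone (limma). None of the 9 regulators of mitochondrial biogenesis passed, with 0 in either direction and a median of 0.18.

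Of 25 further assembly factors outside the member rule 3 rose and 2 fell, beside 9.07% and 4.75% of genes tested. Higd2a, a factor of complex IV, rose by 0.71, and Uqcc5 of complex III and Coa3 of complex IV rose by 0.48 each. Uqcc5 did not pass under TMM (adjusted p = 0.0954). Nubpl, which brings iron-sulfur clusters to complex I, fell by 1.24, from 3.81 ± 1.38 CPM in Control to 0.997 ± 0.297 CPM in AmeloD. Its AmeloD mean is just below the level of 1 CPM, so it was tested mainly through Control, where it is high. With no filter the adjusted p of Nubpl was 0.00144 (limma). Higd1a, a hypoxia-inducible partner of complex IV, fell by 0.81, from 536 ± 57.8 CPM to 306 ± 51.7 CPM (SD, n = 4 each). Among 17 genes of electron carriers, carriers and channels, Nnt, which couples NADH and NADPH in the inner membrane, rose by 0.74 and the rest did not pass. The call of Nnt was lost without Control pCMV6 TGF (adjusted p = 0.0646, limma) and with the N libraries alone (0.50, adjusted p = 0.207, limma).

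Between TGF and N the members did not differ by the test. Of 91 members 0 passed, beside 1.81% of genes tested (1.53% higher and 0.277% lower), with 2 members at an unadjusted p under 0.05 (Atp5f1a and Ndufb4), beside 11.9% of genes tested. edgeR and DESeq2 also called 0. The member median was 0.04 on the log2 scale and that of all genes 0.04, and the summed level was 18834 ± 710 CPM with TGF and 18220 ± 1273 CPM with N (SD, n = 4 each). The largest differences were those of Ndufaf5 (0.35, adjusted p = 0.571, limma) and Cox7a1 (0.34, adjusted p = 0.469, limma), both low in level. Atp5f1a, the other catalytic-head subunit, was the 1 member whose TGF and N libraries did not overlap (1.10%, beside 4.26% of genes tested). It was at 20.7, 17.7, 18.5 and 18.1 CPM in the N libraries (AmeloD pCMV6, AmeloD pCMV6.ODAM, Control pCMV6, Control pCMV6.ODAM) and 15.5, 15.1, 13.8 and 17.0 CPM in the TGF libraries in that order. The difference was -0.27 (adjusted p = 0.402, limma).

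Between pCMV6.ODAM and pCMV6 again 0 of 91 members passed, beside 0 of all genes tested (0%), with limma and edgeR. DESeq2 called 1 gene, not a member. At an unadjusted p under 0.05 there were 9 members, beside 6.63% of genes tested, and under the other scalings and tools there were 7 with TMM or the same median, 5 with the table sum or edgeR and 4 with DESeq2. Their summed level was 18695 ± 1161 CPM with pCMV6.ODAM and 18358 ± 976 CPM with pCMV6 (SD, n = 4 each). Ndufs3, a core subunit of the matrix arm of complex I, differed by 0.40 (adjusted p = 0.710, limma) and Ndufaf5 by -0.45 (adjusted p = 0.729, limma). Libraries did not overlap for 4 members (4.40%, beside 2.06% of genes tested), and Cox4i1 was one of these at 0.22 (adjusted p = 0.710, limma).

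Whether a difference depended on another label was tested with interaction terms, which leave 3 residual degrees of freedom. No member passed for genotype by TGF (0 of 91, beside 0.0146% of genes tested), for genotype by plasmid or for TGF by plasmid (0 of 91 each, beside 0% of genes). At an unadjusted p under 0.05 there were 0, 3 and 4 members, beside 4.12%, 4.50% and 7.36% of genes tested, and edgeR and DESeq2 called 0 in each after adjustment. For TGF by plasmid that unadjusted count depended on the scaling, with 18 of 91 members under TMM (beside 5.50% of genes), 9 with the same median in every library (5.02%), 4 with the table sum (5.83%), 14 with edgeR (5.17%) and 9 with DESeq2 (1.90%). The largest terms were -0.75 for Ndufaf6 (genotype by TGF, adjusted p = 0.999, limma), 0.69 for Ndufaf5 (genotype by plasmid, adjusted p = 0.999, limma) and 0.73 for Sdhc (TGF by plasmid, adjusted p = 0.645, limma). For TGF by plasmid the median of all genes shifted from 0.16 with the deposited CPM to -0.02 with TMM. Relative to that median the members stood at -0.16 and -0.19.

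**Figure D3:**
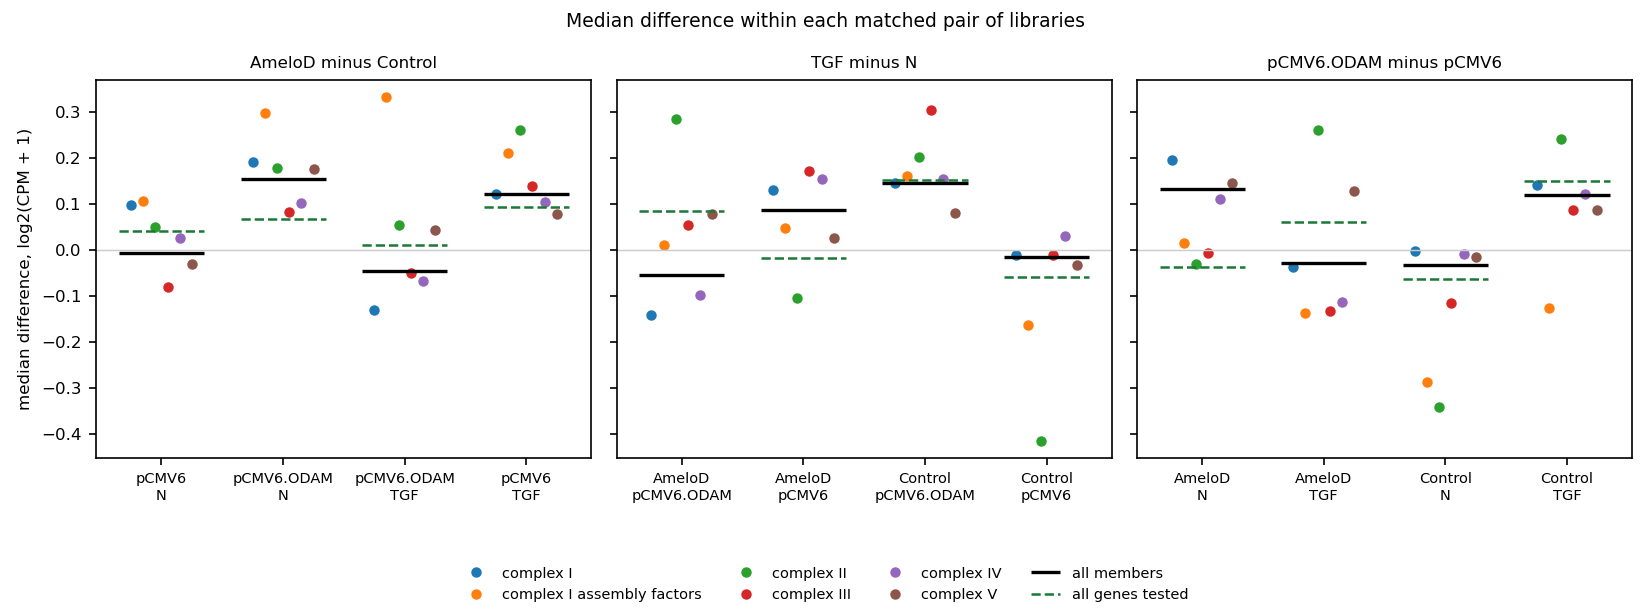
For each pair of libraries that differ in 1 label the plot gives the median difference in log2(CPM + 1) of each complex (points), of all 91 members (black bar) and of all genes tested (dashed bar). For genotype the member median runs from -0.05 in the pair labelled pCMV6.ODAM TGF to 0.15 in the pair labelled pCMV6.ODAM N. Between the TGF pairs and between the plasmid pairs complex II, with 4 genes, moves most.

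Within the 4 matched genotype pairs the member median was thus not of 1 sign. It was -0.01 at pCMV6 N, 0.15 at pCMV6.ODAM N, 0.12 at pCMV6 TGF and -0.05 at pCMV6.ODAM TGF. Members with a positive difference numbered 45, 64, 64 and 36 of 91 (49.5%, 70.3%, 70.3% and 39.6%) in that order, beside 54.1%, 56.1%, 59.0% and 51.1% of genes tested. Each pair compares single libraries and has no replicate check.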

How the data were processed

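RNA of 8 libraries was prepared with a kit that captures 3′ ends, trimmed with Trim Galore 0.6.7, Trimmomatic 0.39 and cutadapt 3.7, aligned with STAR 2.7.10a to mRatBN7.2 and counted with featureCounts 2.0.1, per the labels' protocols and the submitters' processing notes. The strand setting, the use of molecular identifiers and how multi-gene reads were handled: not given in the sources used here. CPM per gene were deposited by the authors. The CPM of every value came out as whole reads (100% within 0.01 of a read), so read counts were recovered from the deposited CPM. The table held 15.6% to 17.5% of each library's total. Rows without a symbol (4319) were kept.

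The main test was limma 3.58.1 (R 4.3.3) with the eBayes trend on log2(CPM + 1), fitting all 8 libraries with additive terms for genotype, plasmid and TGF (4 residual degrees of freedom, which hold interactions too), with two-sided p-values adjusted by Benjamini-Hochberg across 6849 genes that reached 1 CPM in 4 or more libraries. The step was tested on simulated data. Alternatives were edgeR 4.0.16 and DESeq2 1.42.0 on recovered reads, rescalings, pseudocounts, filters, no trend, each library left out, N or TGF libraries alone and combinations as a block. A count of the main calls without the rows named as pseudogenes was added after seeing the data. It stayed at 8 rises and 5 falls, since 0 of those rows had been called. The members and lists were chosen with earlier results of these data known. Genes were named by a rule: up to 5 members per class and direction past the genotype test, else the 2 of largest difference, a set of fixed isoforms and core subunits, and up to 3 per direction of each list. Ndufc1, Ndufb4, Ndufaf4, Ndufv3-ps1, Atp5f1a and the rows named at or below the level fall outside it and were named after their values were seen.

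Promoters came from RefSeq (GRCr8), matched by symbol and chromosome. No genome was used here, and reads need not be independent molecules, so floors cover counting error only.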

Additional observations from a re-analysis of the deposited data

Results flagged for a closer look

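A library apart from the other 3 of its genotype was found in 6 of 80 groups of 4 libraries examined. Chance flags about 1 in 20 groups of 4 replicates of 1 condition. Here the 4 libraries carry different plasmid and TGF labels and the groups share libraries, so that rate need not hold. Of these groups 3 have AmeloD pCMV6.ODAM TGF as the highest library: Atp5f1b, the catalytic subunit of ATP synthase, at 100.2 CPM beside 61.3 to 67.3 CPM in the other AmeloD libraries, Sdhb at 37.9 CPM beside 19.7 to 21.4 CPM, and Atp5mc3 at 28.1 CPM beside 26.3 to 26.5 CPM. In Control, Uqcrc1 was highest in pCMV6.ODAM TGF at 9.16 CPM beside 6.30 to 6.75 CPM. The summed level of complex III was lowest in AmeloD pCMV6 N at 1812 CPM, with 2137 to 2166 CPM in the others, and within Control lowest in pCMV6.ODAM N at 2068 CPM, with 2152 to 2168 CPM in the others.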

How the results depend on the processing

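The 8 rises between genotypes became 2 under TMM, the same median in every library, no filter, edgeR and DESeq2, and 1 without the eBayes trend or with the TGF libraries alone. Without 1 library they ranged from 2 (without Control pCMV6.ODAM N) to 7, with 3 without AmeloD pCMV6.ODAM N, 4 without Control pCMV6 TGF and 5 without AmeloD pCMV6 N, AmeloD pCMV6 TGF or Control pCMV6 N. The 5 falls became 1 without the trend, 3 with the N libraries alone and 2 with the TGF libraries alone, and without 1 library ranged from 3 (without AmeloD pCMV6 N) to 6. Calls over all genes moved too. Of 6849 genes 621 rose and 325 fell in the main fit, 489 and 260 with the N libraries alone and 295 and 142 with the TGF libraries alone. With no filter 516 rose and 235 fell of 17287 genes. Without 1 library, rises of all genes ranged from 401 (without Control pCMV6.ODAM N) to 661, and falls from 219 to 295. Without the trend 2 of the 13 calls were kept. The complex II median was 0.138 with the N libraries alone and ranged from 0.129 (without AmeloD pCMV6.ODAM TGF) to 0.356 without 1 library, complex III came to -0.0730 with a filter of 5 CPM, and complex V to -0.0261 with TMM.

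Differences that changed sign were uncalled. Without 1 library Sdhb ranged from -0.00533 to 0.400, Cox7a1 from -0.0676 to 0.0322, Cox7a2 from -0.0511 to 0.0103, Atp5f1b from -0.206 to 0.0486 and Atp5if1 from -0.0545 to 0.142. With the N libraries alone Sdhb was -0.00202 and Cox7a2 0.0321. With the TGF libraries alone Cox7a1 was 0.0974, Atp5f1b 0.0883 and Atp5if1 -0.0554. Atp5if1 was also -0.0209 with TMM, -0.00228 with the same median and -0.00222 with DESeq2. The cause of these changes was not tested. Plasmid and TGF combinations as a block gave 9 rises and 6 falls, with all 13 calls kept, beside 679 rises and 356 falls of 6849 genes. Depth limits the low members most: 3 reads are 0.169 to 0.284 CPM.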
